A study of Laccaria bicolor with 4 samples.

Results

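Gene models that span 300 bp or less make up 1905 of the 23125 models in the Laccaria bicolor gene tables (8.24%). They were chosen by length alone, as the end coordinate minus the start coordinate plus 1, and they run from 96 to 300 bp. They are set against the 7510 models of 1000 to 2000 bp (32.5% of all). The expression of L. bicolor, an ectomycorrhizal mushroom that lives in symbiosis with tree roots, was measured by RNA-seq in mycelium of strain S238N-H82, a monokaryotic line. Liquid cultures of 8 weeks were used. In 2 libraries, labelled replicates 1 and 2, the mycelium had spent 2 days in 5 mM vitamin C, and in 2 others, likewise labelled, it was untreated. Vitamin C (ascorbate) is a cofactor of iron-dependent TET dioxygenases, the enzymes that oxidize 5-methylcytosine. All 4 libraries share the strain and the medium, and 8 weeks is the only culture time given. The sources do not say whether the 2 days in vitamin C fell within it. Nothing in the labels says whether replicates of the same number were grown together.

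A model of this length can encode only a small protein or a peptide. Fungal genomes hold genuine short genes, among them those of small ribosomal proteins, small membrane subunits of the respiratory chain and secreted peptides. Automated annotation also yields short models that are pieces of longer genes or remnants of transposable elements, and a gene table alone does not separate these kinds. The identifiers in the tables are not paired with gene names, and 0 of 23125 matched the RefSeq annotation of an earlier assembly, so each model is named by its coordinates (V2 genome) and strand, and no function is stated for any of them. Exon positions were not used here, and the length of a model is its span, which counts any intron.

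The libraries were stranded and were made from the RNA fraction above 200 nt after removal of rRNA, without selection for polyA tails. Of the short models, 499 span 200 bp or less, and 206 of these were expressed with vitamin C and 213 untreated. Expression is given as TPM, the share of a library's transcripts, scaled to a sum of 1000000, after correction for length. This puts models of different length on the same scale. Whether that scale holds for spans near or under the 200 nt limit of the RNA was not tested. Depth, as the ratio of coverage to FPKM gives it, was 5.65 and 4.27 Gb aligned with vitamin C, and 4.201 and 4.40 Gb untreated. A model was called expressed at a TPM above 0.05, the threshold of the study, applied to each library or to the mean of the 2 libraries of a condition, as stated. At this threshold a model of 300 bp holds 41.5 to 52.9 aligned bases, depending on the library. A model of 1000 bp holds 138.2 to 176.4, and a model of 2000 bp 276.5 to 352.9. The deposited values are not read counts, so no counting interval is given for a TPM. An exact 0 can be a failed estimate and is written as listed at 0.

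Fewer of the short models were expressed than of the models of 1000 to 2000 bp, in every library. Of the 1905 short models, 703 and 696 had a TPM above 0.05 in the vitamin C libraries (36.9% and 36.5%), and 717 and 731 in the untreated libraries (37.6% and 38.4%). The share among models of 1000 to 2000 bp was 73.0% and 72.5% with vitamin C and 72.8% and 73.0% untreated. The 2 length classes thus did not overlap, and their difference was -35.45 ± 0.694 percentage points (mean, SD over n = 4 libraries). An exact sign-flip permutation test over the 4 libraries gave its smallest possible two-sided p of 0.13, so the design cannot place this difference below 0.05 however regular it is. By condition mean, 738 short models (38.7%) were expressed with vitamin C and 765 (40.2%) untreated, against 73.2% and 73.5% of the longer models. The SD is over libraries of both conditions, so it holds any difference between conditions as well as that between replicates. The class difference was -36.07 and -35.97 points with vitamin C, and -35.19 and -34.6 untreated. All libraries are of 1 strain, and genes are not replicates.

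Most of the short models had no value above 0 in any library. All 4 libraries listed 1072 of them at 0 (56.3%), against 24.7% of models of 1000 to 2000 bp. Split by the threshold, 619 short models were above it in all 4 libraries, 187 in 1 to 3 of them, and 1099, which include those at 0 throughout, in none. Of the short models above the threshold in any library, 23.2% were not above it in all 4, against 5.31% of the longer class. A TPM above 0 and up to 0.05 was found for 28 to 35 of the 1905 short models per library. In the longer class it was found for 22 to 36 of 7510, a smaller part. Between any pair of libraries, 4.51% to 6.35% of short models and 1.93% to 2.33% of the longer ones changed from expressed to not expressed or back. Of the expressed short models, 25.6% to 30.6% per library held under 1000 aligned bases, against 2.70% to 3.20% of the longer ones. The part of this in these changes was not tested.

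Where they were expressed, the short models stood at lower levels per length. Their median TPM, over models above the threshold in that library, was 5.71 and 4.80 in the vitamin C libraries and 4.89 and 5.68 in the untreated ones. The longer models had medians of 18.2 and 16.3 TPM with vitamin C and 17.0 and 20.1 TPM untreated, so the medians of the 2 classes were apart in every library. The levels themselves overlapped, with quartiles by condition mean of 0.832 and 17.3 TPM for short models, against 3.86 and 55.0 TPM, with vitamin C. The short models reached 0.294 times the median of the longer ones (log2 ratio -1.76 ± 0.065, SD over n = 4 libraries, p = 0.13 from the exact sign-flip test, again the smallest it can give). Of the expressed short models, by condition mean, 541 had a TPM of at least 1 with vitamin C and 575 untreated, 274 and 285 reached 10, and 54 and 53 reached 100. The short models held 2.93% and 3.17% of all TPM with vitamin C and 3.46% and 3.54% untreated.

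Models on either side of the 300 bp limit had like shares. Of the 129 models in the last 10 bp inside the limit, 48 were expressed with vitamin C and 51 untreated, with median TPM of 4.60 and 6.60. Of the 117 models in the first 10 bp outside it, 44 and 43 were expressed, with medians of 8.34 and 9.85 TPM. Above 150 bp the share expressed changed slowly and then climbed. By condition mean it was 37.7% with vitamin C and 38.6% untreated above 150 and up to 200 bp (n = 443), 36.6% and 37.3% up to 250 bp (n = 667), and 39.0% and 41.0% up to 300 bp (n = 739). In the next classes it was 43.9% and 44.4% up to 500 bp, 59.0% and 59.4% above 500 and under 1000 bp, and 76.0% and 76.1% above 2000 and up to 5000 bp.

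**Figure D1:**
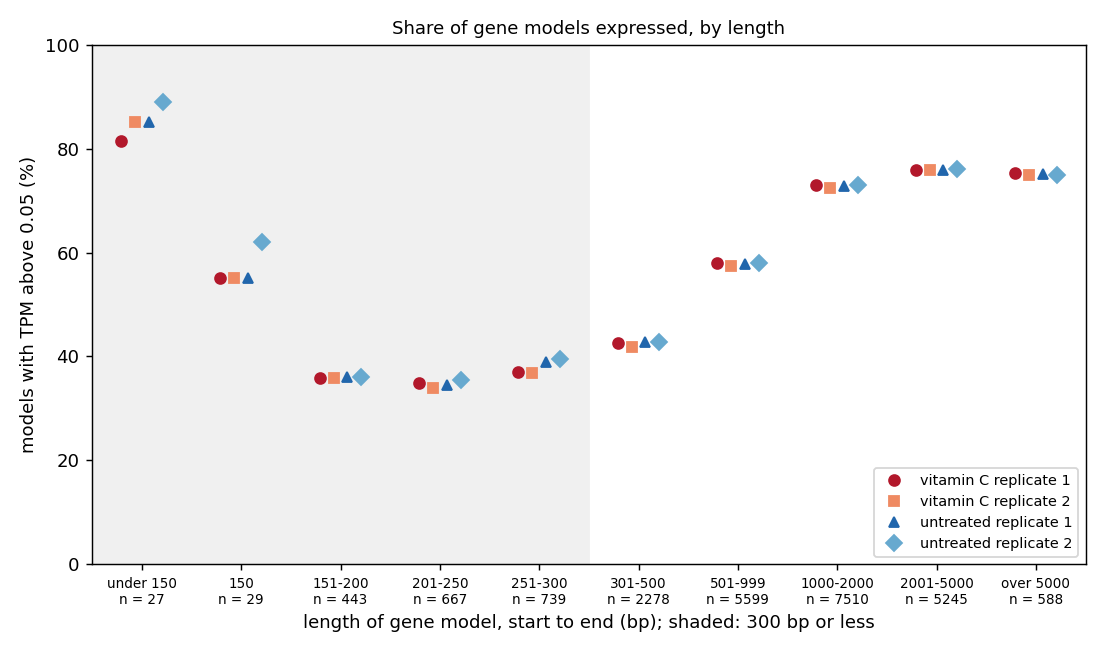
Share of gene models with a TPM above 0.05 (%, vertical axis) in classes of model length (bp, horizontal axis, number of models under each), 1 point per library, with models of 300 bp or less shaded. The share is 33.9% to 39.5% above 150 and up to 300 bp and at least 72.5% from 1000 bp, while the 27 models under 150 bp stand at 81.5% to 88.9%.

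The very shortest models went against this trend. Of the 27 models under 150 bp, 23 were expressed with vitamin C (85.2%) and 24 untreated (88.9%), and their median TPM of 58.9 and 53.9 was above that of the models of 1000 to 2000 bp. The 29 models of exactly 150 bp lay between, with 16 (55.2%) and 18 (62.1%) expressed and medians of 16.3 and 13.3 TPM. The models under 150 bp also share a feature of the annotation. Up to 27526, identifier numbers follow position along the linkage groups and scaffolds, apart from 208 of 23014 steps between consecutive numbers that go to a lower start (0.904%). Another 57 models carry higher numbers outside this order. All 27 models under 150 bp belong to these 57, no model in the positional order is shorter than 150 bp, and all 27 have a length that is a multiple of 3. The 28 models over 300 bp with such numbers were also mostly expressed, 25 with vitamin C (89.3%) and 23 untreated (82.1%), with medians of 10.3 and 13.2 TPM. Without the 29 short models of this group, 713 of 1876 short models were expressed with vitamin C (38.0%) and 739 untreated (39.4%), so the group moves the share of the whole class little. The sources used here do not say how they entered the annotation, and the part of that choice in their levels was not tested.

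The 4 shortest expressed models are 96 bp long, and all 4 were detected in every library. The model on linkage group 8 from 232221 to 232316 (+) had 281 and 356 TPM in the vitamin C libraries, against 454 and 195 TPM in the untreated ones. At linkage group 7, the model from 640340 to 640435 (+) had 139 and 120 TPM with vitamin C, against 94.7 and 55.4 TPM untreated. The models on scaffold 13 from 580701 to 580796 (+) and on linkage group 8 from 492342 to 492437 (-) were lower. That on scaffold 13 had 18.9 and 22.0 TPM with vitamin C, against 24.4 and 15.3 TPM untreated. The other had 20.7 and 13.0 TPM with vitamin C, against 14.4 and 13.3 TPM untreated. Of these 4, only the linkage group 7 model had vitamin C values that did not overlap the untreated ones, and in each of the 4 untreated replicate 1 was above untreated replicate 2.

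This order of the untreated libraries held for nearly all models of 120 bp or less. Of the 17 such models, untreated replicate 1 was above replicate 2 in 14 and below it in 1, while vitamin C replicate 1 was above replicate 2 in 6 and below it in 8. Among the 14 that averaged 10 TPM or more, the median of log2(TPM + 1) in untreated replicate 2 minus replicate 1 was -0.71, with replicate 1 higher in 14 of 14. Models above 120 and up to 150 bp (n = 14) had a median of 0.28 for the same difference, and those above 250 and up to 300 bp (n = 98) had 0.11. In the vitamin C libraries the median for 120 bp or less was 0.05. A change with vitamin C in a model of 120 bp or less therefore rests on untreated libraries that differ from each other, and this pattern was found after the values were seen and was not tested.

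**Figure D2:**
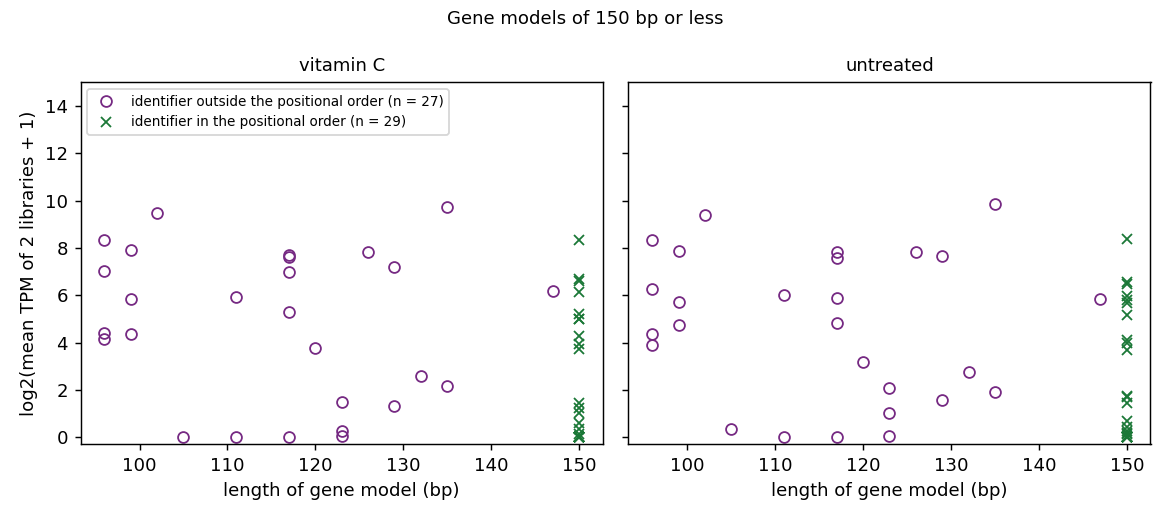
Log2 of the mean TPM plus 1 (vertical axis) against model length in bp (horizontal axis) for the 56 models of 150 bp or less, in vitamin C mycelium (left) and untreated mycelium (right). Circles are the 27 models whose identifiers lie outside the positional order, and crosses the 29 in order, all of which are exactly 150 bp long.

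Abundance among the short models was concentrated in a few. The most abundant model held 17.6% and 23.2% of the short models' TPM in the vitamin C libraries and 21.2% and 21.5% in the untreated ones, and the first 12 together held 46.4% and 52.0%, against 51.9% and 50.7%. Only 2 short models were among the 100 most abundant of all models, where 45 were of 1000 to 2000 bp, and 33 were among the first 1000 (3.30%, against their share of 8.24% of all models).

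The leading model, of 292 bp on scaffold 29 from 35888 to 36179 (+), ranked as number 3 of all 23125. It had 5147 and 7362 TPM in the vitamin C libraries, against 7328 and 7630 TPM in the untreated ones, and the ranges overlapped. The model on linkage group 3 from 2611556 to 2611759 (+, 204 bp) came next, at rank 72, with 1190 and 1373 TPM with vitamin C, against 1619 and 1695 TPM untreated. The model on linkage group 2 from 3836376 to 3836630 (+, 255 bp) had 1090 and 906 TPM with vitamin C, against 1049 and 1480 TPM untreated. Of the 12, it alone lay where neither flanking model was expressed, in both conditions.

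On scaffold 33 from 12925 to 13191 (-), a model of 267 bp had 660 and 1125 TPM with vitamin C, against 961 and 962 TPM untreated. The base at 12925 also ends a model of 1998 bp on the same strand, which had 919 and 1259 TPM with vitamin C, against 994 and 1301 TPM untreated. Both models were lowest in vitamin C replicate 1. Linkage group 9 carries a pair of models of 186 bp among the 12, from 197769 to 197954 (-) and from 233914 to 234099 (+). The first had 778 and 891 TPM with vitamin C, against 1006 and 955 TPM untreated. The other had 727 and 771 TPM with vitamin C, against 881 and 919 TPM untreated, so that both were lower with vitamin C without overlap.

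Of the 12, 2 belong to the group of models outside the positional order. That of 135 bp, on linkage group 6 from 2472422 to 2472556 (-), had 906 and 804 TPM with vitamin C, against 1101 and 766 TPM untreated. That of 102 bp, on linkage group 1 from 2672613 to 2672714 (-), had 704 and 704 TPM with vitamin C, against 849 and 503 TPM untreated. In both, the untreated libraries lay on either side of the vitamin C ones.

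The remaining 4 had means of 632 to 840 TPM. A model of 299 bp on linkage group 2 from 1538315 to 1538613 (+) had 862 and 754 TPM with vitamin C, against 942 and 802 TPM untreated. A model of 172 bp on scaffold 12 from 174040 to 174211 (-) had 489 and 627 TPM with vitamin C, against 735 and 773 TPM untreated. On linkage group 9, the 290 bp from 1137487 to 1137776 (+) had 550 and 609 TPM with vitamin C, against 713 and 715 TPM untreated. On linkage group 2, the 190 bp from 2164917 to 2165106 (+) had 481 and 565 TPM with vitamin C, against 787 and 693 TPM untreated. The last 3 of these were lower in both vitamin C libraries than in both untreated ones, as were 6 of the 12 in all, and none of the 12 was higher in both. Among all 15107 models tested for vitamin C, 24.9% were lower without overlap in this sense and 21% were higher. None of the 12 passed the test across all genes (lowest adjusted p = 0.31, limma with Benjamini-Hochberg adjustment).

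**Figure D3:**
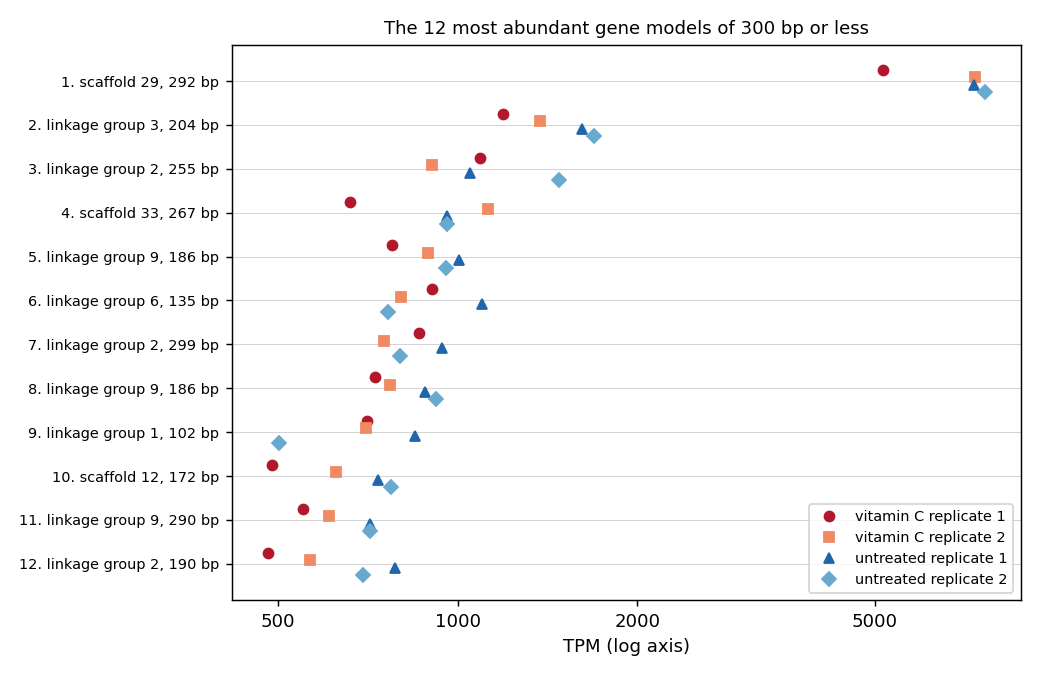
TPM in each library (horizontal log axis) of the 12 most abundant gene models of 300 bp or less, ordered from the highest mean at the top. The first stands at 5147 to 7630 TPM and the others between 481 and 1695 TPM, and 2 of the 12 (135 and 102 bp) are outside the positional order of identifiers.

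Short models sat among other models that were not expressed more often than the longer ones did. For each model, the nearest model on either side on its linkage group or scaffold was scored as expressed or not by condition mean. Both flanking models were not expressed for 40.4% of short models with vitamin C and 40.2% untreated, against 19.7% and 19.6% of models of 1000 to 2000 bp. Both were expressed for 36.5% and 37.0% of short models, against 61.9% and 62.8% of the longer ones. Within each kind of neighbourhood the share of expressed short models was still lower. It was 3.28% with vitamin C and 3.69% untreated where no flanking model was expressed, 32.6% and 34.9% where 1 was, and 82.7% and 83.9% where both were. For models of 1000 to 2000 bp the shares were 7.14% and 7.15%, 64.4% and 64.2%, and 97.0% and 97.0%. If the longer models had the short models' mix of neighbourhoods at their own rates, 53.1% would be expressed with vitamin C and 53.4% untreated. If the short models had the longer models' mix at their own rates, 57.9% would be expressed with vitamin C and 59.6% untreated. All of these lie between the 39.05% and 40.5% of short models with 2 neighbours and the 73.3% and 73.6% of longer ones. These are shares over genes with no test, and neighbours can share reads where models overlap. The part of neighbourhood in the difference between the classes was not tested.

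**Figure D4:**
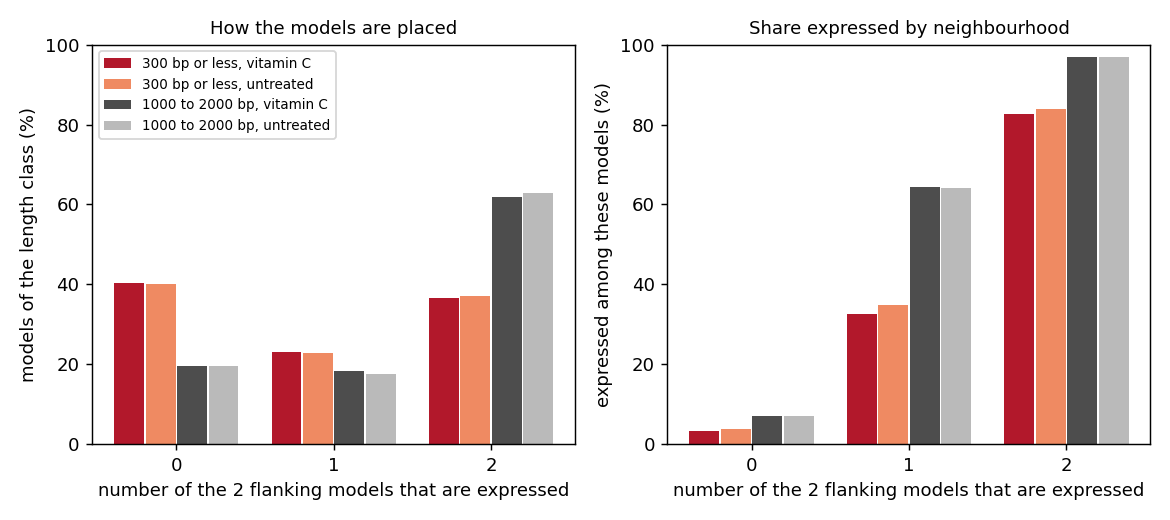
Left, share of each length class (%) with 0, 1 or 2 expressed flanking models. Right, share of those models that are themselves expressed (%), for models of 300 bp or less and of 1000 to 2000 bp in vitamin C and untreated mycelium. Short models lie more often between models that are not expressed, and are expressed less often in each of the 3 neighbourhoods.

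Short models occurred on all 10 linkage groups, at 6.79% to 14.2% of the models there. The highest share was on linkage group 5, with 175 short models among 1235 (14.2%). Expression on linkage group 5 was low for both classes, at 32.6% of short models with vitamin C and 34.3% untreated, against 43.7% and 43.4% of models of 1000 to 2000 bp. On scaffold 23, none of the 16 short models was expressed in either condition, and 6.25% of the longer ones were. On scaffold 18, none of the 11 short models was expressed either, against 69.3% of the longer ones with vitamin C and 70.7% untreated. The order of the classes was reversed on scaffold 15, where 18 of 28 short models were expressed in each condition (64.3%). The longer ones there stood at 55.7% with vitamin C and 57.4% untreated. It was also reversed on scaffold 26, with 2 of 6 short models expressed in each condition (33.3%), against 26.7% of the longer ones. Linkage group 8 had the highest shares of expressed short models among the linkage groups, at 56.3% and 57.8%, against 78.2% and 77.4% of the longer ones. Linkage groups as a whole, scaffolds over 100 kb and scaffolds up to 100 kb held 8.23%, 8.21% and 9.80% short models. Short models lay next to another short model in 23.0% of cases, against 13.7% for the longer class, and within 50 kb of the end of a linkage group or scaffold in 5.51%, against 4.43%. The gap to the nearer neighbour had a median of 312 bp for short models, against 252 bp.

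The longest run of neighbouring short models held 5, on linkage group 10 from 1818329 to 1823202, and all 5 were listed at 0 in every library. The longest runs of short models that were all expressed in both conditions held 3, and there were 7 of them. In the run on linkage group 3 from 730655 to 732865, the 3 models of 213, 168 and 283 bp lie on the same strand. The first had 23.9 and 19.6 TPM with vitamin C, against 32.8 and 40.5 TPM untreated. The second had 12.3 and 10.2 TPM with vitamin C, against 18.4 and 24.8 TPM untreated. The last had 27.2 and 28.8 TPM with vitamin C, against 26.0 and 30.3 TPM untreated. The first 2 of this run were lower with vitamin C without overlap, and the last was not. This run was picked from the 7 after its values were seen, and other runs held models that differed without overlap in either direction. Of short models tested for vitamin C, 29.1% were lower and 12.7% higher without overlap, against 24.9% and 21% of all models tested.

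Lengths that are a multiple of 3 were common among the short models, at 1275 of 1905 (66.9%), against 35.9% of models of 1000 to 2000 bp. A span without introns or untranslated ends has such a length. The share expressed differed little by this property, with 39.5% of the multiples of 3 expressed with vitamin C and 40.6% untreated, against 37.1% and 39.4% of the other short models. The median TPM of the expressed multiples of 3 was lower, at 3.95 with vitamin C and 4.27 untreated, against 5.86 and 5.71 for the others.

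Another model overlapped 200 of the short models by at least 1 base (10.5%, 95% Clopper-Pearson interval 9.16% to 11.96%), against 1072 of 7510 of the longer class (14.3%, interval 13.5% to 15.1%). The 2 classes differed in the strand of the partner. A partner on the same strand was found for 136 short models (7.14%), against 430 of the longer ones (5.73%). A partner on the opposite strand was found for 69 short models (3.62%), against 691 of the longer ones (9.20%). Whole containment in another model was found for 98 short models (5.14%), against 192 longer ones (2.56%). Partners had a median length of 1426 bp, and 24 of the 200 overlaps spanned no more than 10 bp.

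Overlapping models were expressed more often in both length classes. Of the 200 short ones, 62.5% were expressed with vitamin C and 64.5% untreated, with median TPM of 1.74 and 2.08. Of the 1705 that overlap no model, 36.0% and 37.3% were expressed, with medians of 5.86 and 5.59 TPM. For models of 1000 to 2000 bp the shares were 90.4% and 91.2% with an overlap, and 70.3% and 70.5% without. The low median of overlapping short models was that of the same-strand ones, at 1.30 TPM with vitamin C and 1.58 TPM untreated, while those with an opposite-strand partner stood at 4.43 and 5.27 TPM. The expression of the partner went with that of the short model. Where a partner was expressed, 71.3% of the short models were expressed with vitamin C and 72.9% untreated, and where no partner was, 18.2% (6 of 33) and 23.5% (8 of 34). Overlapping models may draw on the same reads, and the sources used here do not give StringTie's strand setting, so the levels of both partners are uncertain.

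The 98 contained models differed by strand, and a model inside hosts on both strands counts under each. Inside a model on the same strand lay 65 short models, of which 33 pairs had both models expressed by mean TPM over the 4 libraries. In those pairs the short model had a median of 0.355 TPM and its host 18.7 TPM, the median ratio was 0.0401, and the short model was above its host in 2 of 33. Inside a model on the opposite strand lay 35 short models, with 25 pairs expressed. There the short models had a median of 9.18 TPM and the hosts 9.36 TPM, the median ratio was 0.844, and the short model was above its host in 12 of 25. By this mean, no pair of either kind had only the short model expressed. By condition mean, 1 short model inside an opposite-strand host was expressed without its host with vitamin C and 1 untreated, and inside same-strand hosts 0 and 1.

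The highest contained model on the opposite strand of its host was the 204 bp model on linkage group 3 described above, number 2 in abundance among the short models. Its host, of 820 bp from 2611550 to 2612369 (-), had 53.0 and 52.1 TPM with vitamin C, against 67.1 and 63.3 TPM untreated. Both models of this pair were lower with vitamin C without overlap. For the next 3, the host was at 0 in 2 or 3 libraries while the short model had a value in every library. On linkage group 2 from 4251286 to 4251519 (-), the short model had 98.7 and 124 TPM with vitamin C, against 110 and 99.3 TPM untreated. Its host, of 1409 bp from 4250254 to 4251662 (+), had 9.54 TPM in vitamin C replicate 1 and was listed at 0 in the other 3 libraries. On linkage group 3 from 2995924 to 2996073 (-), the model of 150 bp had 80.0 and 58.2 TPM with vitamin C, against 51.6 and 69.8 TPM untreated. Its host of 550 bp (+) had 8.99 TPM in vitamin C replicate 2 and 7.83 TPM in untreated replicate 1, and was listed at 0 in the other libraries of both conditions. The model of 280 bp on linkage group 3 from 4615483 to 4615762 (-) had 96.9 and 85.4 TPM with vitamin C, against 70.9 and 77.5 TPM untreated. It was higher with vitamin C without overlap. Its host had no value above 0 with vitamin C, against 7.81 and 8.81 TPM untreated. In these 3 pairs the host was listed at 0 or stood between 7.81 and 9.54 TPM. Its values split by condition in the last pair, and in the other 2 they differed within a condition.

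Among models inside a host on the same strand, 1 pair exchanged its values between libraries. The short model, of 207 bp on linkage group 7 from 114659 to 114865 (+), was at 0 in both vitamin C libraries and in untreated replicate 1, and had 213 TPM in untreated replicate 2. Its host, of 509 bp from 114361 to 114869 (+), had 207 and 144 TPM with vitamin C and 156 TPM in untreated replicate 1, and was listed at 0 in untreated replicate 2. Exactly 1 of the 2 models thus had a value in each library, between 144 and 213 TPM. The other 3 of this kind had means below those of their hosts. That on linkage group 6 from 2869191 to 2869449 (+) had 22.8 and 13.4 TPM with vitamin C, against 15.6 and 17.4 TPM untreated. The host, of 6515 bp, had 20.8 and 16.7 TPM with vitamin C, against 16.5 and 20.6 TPM untreated. That on scaffold 11 from 720489 to 720742 (+) had 10.4 and 10.3 TPM with vitamin C, against 9.58 and 11.97 TPM untreated, inside a host at 11.5 and 14.0 TPM with vitamin C, against 11.4 and 12.5 TPM untreated. That on linkage group 4 from 3479085 to 3479319 (+) had 9.20 and 4.43 TPM with vitamin C, against 4.64 and 8.92 TPM untreated, inside a host at 23.6 and 14.0 TPM with vitamin C, against 22.5 and 29.3 TPM untreated.

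Replicate libraries differed more for short models than for longer ones. Over models with a condition mean of at least 1 TPM, the SD of the difference in log2(TPM + 1) between replicates was 0.559 for 541 short models and 0.307 for 4882 longer ones with vitamin C. Untreated, it was 0.729 for 575 short models and 0.399 for 4923 longer ones. The median absolute difference was 0.258, against 0.1996 for the longer class, with vitamin C, and 0.347, against 0.264, untreated. The wider spread of the SD rests partly on few models: without the 4 widest, chosen after the values were seen, it was 0.465 with vitamin C and 0.567 untreated. Of the short models, 3.88% with vitamin C and 7.30% untreated differed by over 2-fold on this scale, against 0.635% and 1.77% of the longer ones. Each of these rests on 1 pair of libraries, so the SDs of the conditions cannot be compared by a test.

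The short models hold fewer aligned bases, so replicates were also compared within ranges of aligned bases, for models above 0 in both libraries. The product of coverage and span, an upper value where a model has introns, had medians of 4491 and 3148 bases for expressed short models in the vitamin C libraries and 3413 and 3719 in the untreated ones. For models of 1000 to 2000 bp it was between 65240 and 92520 bases in the 4 libraries. Exon positions were not used, so short and longer models in the same range may not hold like numbers of aligned bases. Among models with 3000 to 10000 bases, the median absolute log2 ratio of TPM was 0.348 for 175 short models and 0.360 for 563 longer ones with vitamin C. Untreated, it was 0.366 for 174 short models and 0.494 for 551 longer ones. With 30000 to 100000 bases it was 0.248 and 0.253 with vitamin C, and 0.326 and 0.328 untreated, for 61 and 64 short models and 1225 and 1300 longer ones. At 300 to 1000 bases the short models were slightly wider, at 0.583, against 0.558 for the longer class, with vitamin C, and 0.855, against 0.766, untreated. These medians leave out models at 0 in 1 library. At 3000 to 10000 bases such models were 1.14% of short ones, against 0.533% of longer ones, with vitamin C, and 1.15%, against 0.544%, untreated. At 30000 to 100000 bases they were 0%, against 0.163%, with vitamin C, and 3.125%, against 0.0769%, untreated. At 300 to 1000 bases they were fewer among short models, at 11.7%, against 35.2%, with vitamin C, and 13.2%, against 37.7%, untreated. The part of depth in the spread of all short models was not tested.

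**Figure D5:**
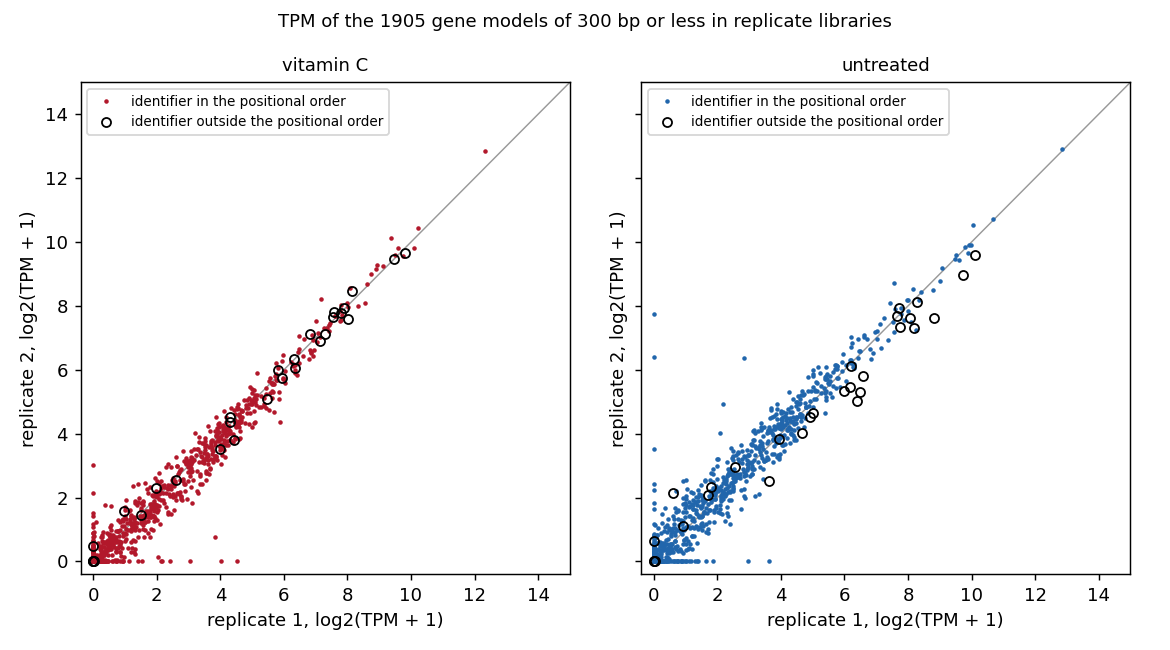
Log2(TPM + 1) in replicate 1 (horizontal axis) and replicate 2 (vertical axis) of the 1905 models of 300 bp or less, for vitamin C (left) and untreated mycelium (right), with the line of equal values. Black circles are the short models outside the positional order, which lie mostly under the line in untreated mycelium, and points on an axis are listed at 0 in 1 library.

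The 4 widest differences were all of models listed at 0 in 1 replicate. The first was the linkage group 7 model of 207 bp that exchanged its values with its host. The model of 263 bp on linkage group 2 from 3424423 to 3424685 (-), which overlaps no other, was at 0 in both vitamin C libraries and in untreated replicate 1 and had 82.8 TPM in untreated replicate 2. The model of 276 bp on scaffold 22 from 413995 to 414270 (+) had 21.8 TPM in vitamin C replicate 1, 0 in replicate 2, and 19.9 and 14.4 TPM untreated. It shares 142 bp with a model of 933 bp on the opposite strand at 1.84 and 5.86 TPM with vitamin C, against 1.66 and 1.89 TPM untreated. The partner was thus highest in the library in which the short model was listed at 0. The model of 243 bp on linkage group 3 from 6969197 to 6969439 (+), with no overlap, had 15.2 TPM in vitamin C replicate 1 and was listed at 0 in the other 3 libraries. Such cases were few: of 408 short models that reached 5 TPM in any library, 5 had a single library at 0 and reached 5 TPM in each of the rest (1.225%), and 3 reached 5 TPM in a single library and were at 0 in the rest (0.735%). In the longer class these were 2 and 2 of 4153.

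The share of expressed short models differed little between conditions. The mean share was 36.7% with vitamin C and 38.0% untreated, a difference of -1.29 percentage points, and an exact permutation test of 2 against 2 libraries gave p = 0.33, the smallest it can give. By condition mean, 707 short models were expressed in both conditions, 31 with vitamin C only (median 0.147 TPM in that condition) and 58 untreated only (median 0.179 TPM).

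Few single short models passed the test for vitamin C. Of the 1905, 773 averaged above 0.05 TPM over all libraries and entered the test, limma on log2(TPM + 1) over all 15107 such models. At an adjusted p under 0.05 (limma with Benjamini-Hochberg adjustment), 0 of the 773 were higher with vitamin C and 1 was lower, against 0.0463% of all models tested in each direction (7 and 7). At an unadjusted p under 0.05, 22 short models were higher (2.85%, against 4.98% of all models tested) and 94 were lower (12.2%, against 8.13%). Lower TPM in both vitamin C libraries than in both untreated ones was found for 29.1% of short models tested, against 24.9% of all, and higher TPM for 12.7%, against 21%. The median change was -0.10 on the log2(TPM + 1) scale for short models, -0.04 for models of 1000 to 2000 bp and -0.02 for all tested. With each library left out in turn, it was -0.18 to -0.02 for short models and -0.09 to 0.05 for all. With quantile normalization the median was -0.06 for short models and 0.02 for all. Counts and medians of this kind over genes were not tested.

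The shift varied with length. Among models that averaged 10 TPM or more, the median of vitamin C minus untreated was 0.10 up to 120 bp (n = 14), -0.02 up to 150 bp (n = 14), -0.09 up to 200 bp (n = 60), -0.19 up to 250 bp (n = 94) and -0.17 up to 300 bp (n = 98). Beyond the short models it was -0.09 up to 500 bp, -0.11 above 500 and under 1000 bp, -0.01 at 1000 to 2000 bp, 0.13 up to 5000 bp and 0.24 above 5000 bp. Replicates of a condition also differed along length: vitamin C replicate 2 minus replicate 1 had a median of -0.08 above 250 and up to 300 bp and -0.28 above 5000 bp. The part of such library differences in the vitamin C shift was not tested.

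The short model that passed the test lies on linkage group 3 from 6851882 to 6852155 (-, 274 bp). Both vitamin C libraries listed it at 0, against 23.6 and 22.2 TPM in the untreated ones (adjusted p = 0.0013, limma with Benjamini-Hochberg adjustment). The fitted difference was -4.58 ± 0.236 (SE, n = 2 per condition) with a pseudocount of 1 and -7.84 with 0.1. It is set by the pseudocount where a condition is at 0. An exact 0 can be a failed estimate, and the SE rests on 2 of them. Of the 408 short models that reached 5 TPM in any library, 1 was at 0 in both vitamin C libraries and reached 5 TPM in both untreated ones. None had the reverse, and the longer class had 1 of each. A model of 404 bp on the same strand, which shares 4 bp with the model of 274 bp, was listed at 0 in all 4 libraries. With any 1 library left out the difference was -4.62 to -4.53 and the adjusted p 0.138 to 0.177, in fits of 2 libraries against 1 that called none of the 15107 models.

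The other large differences did not pass in the fit without a replicate block. Among short models with an unadjusted p under 0.05, at least 1 TPM in a condition and TPM ranges of the conditions that did not overlap, the 4 largest of 83 lower and of 19 higher were followed. On linkage group 5 from 2641263 to 2641516 (+), a model of 254 bp had 0.176 TPM and 0 with vitamin C, against 3.90 and 2.26 TPM untreated (difference -1.88 ± 0.251 SE, adjusted p = 0.077 in limma). On linkage group 1 from 5972725 to 5973018 (+), a model had 0.851 and 1.18 TPM with vitamin C, against 6.21 and 81.2 TPM untreated. It shares 127 bp with a model of 600 bp on the same strand at 654 to 745 TPM in the 4 libraries, and its own untreated values lie far apart. On scaffold 13 from 336938 to 337169 (+), a model had 0 and 7.19 TPM with vitamin C, against 9.92 and 14.3 TPM untreated. Without vitamin C replicate 1, in which it was listed at 0, its difference was -0.66 in place of -2.18.

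The higher ones were smaller. On linkage group 8 from 438849 to 438965 (+), a model of 117 bp outside the positional order had 112 and 139 TPM with vitamin C, against 83.4 and 31.6 TPM untreated (1.26 ± 0.400 SE, adjusted p = 0.31 in limma). It shares the gap between untreated replicates of the models up to 120 bp, and without untreated replicate 2 the difference was 0.58. On linkage group 6 from 3066966 to 3067203 (-), a model had 6.90 and 7.80 TPM with vitamin C, against 3.97 and 1.87 TPM untreated. On linkage group 8 from 12041 to 12315 (-), the values were 1.31 and 1.17 TPM with vitamin C, against 0 and 0.449 TPM untreated. On scaffold 15 from 96601 to 96803 (+), they were 5.45 and 5.97 TPM with vitamin C, against 4.00 and 1.70 TPM untreated. These last 3 had differences of 0.87 to 1.14 and adjusted p of 0.27 to 0.35 in limma. Without untreated replicate 2, the difference was 0.75 in place of 1.14 on linkage group 6 and 0.42 in place of 0.87 on scaffold 15. With a pseudocount of 0.1, it was 2.51 in place of 0.90 for the linkage group 8 model at 12041.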

How the data were processed

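Upstream, the authors used BBDuk for trimming, hisat2 for mapping (V2 genome of L. bicolor), samtools markdup for duplicates and StringTie for gene abundance. They deposited 1 table per library with coverage (mean read depth), FPKM and TPM. The depth of a library came from the ratio of coverage to FPKM. Aligned bases of a model were its coverage times its span, and bases at the threshold came from the ratio of coverage to TPM. The deposited TPM values were used for all levels, and FPKM only as an alternative. The study names DESeq2, which needs read counts and was not used here.

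Models were chosen by length, and overlaps and neighbours were taken from the coordinates in the tables. Vitamin C was tested with limma 3.58.1 (R 4.3.3) with a variance trend on log2(TPM + 1). Benjamini-Hochberg adjustment was over all 15107 models with a mean TPM above 0.05. Library shares were compared by exact permutation tests. Other steps used Python 3.11.15, pandas 2.3.3, numpy 2.4.6, scipy 1.17.1 and matplotlib 3.10.9. The pseudocount was 1. Libraries were grouped by their labels, and p-values measure only the spread between these libraries. The members, lists and tests were chosen with earlier results of these data known.

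Short models were named by rule: the 12 most abundant, any past the test, the 4 largest changes per direction (unadjusted p under 0.05, at least 1 TPM, no overlap of TPM between conditions), the 3 shortest expressed with ties, the 4 highest inside a model on either strand, the 4 widest between replicates, and the longest runs, of which 1 expressed run was picked after its values were seen. Planned lists by gene product were not used, since no names were paired with the identifiers. Alternatives covered thresholds, length limits, pseudocount, filter, scaling, variance model, replicate block and each library left out.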

Additional observations from a re-analysis of the deposited data

How the results depend on the processing

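The difference in the share expressed was between -37.05 and -29.09 percentage points in all alternatives. It was -34.19 with TPM above 0, -36.26 with TPM of at least 1, -32.94 with a limit of 200 bp, -29.09 against all longer models and -37.05 with both libraries above the threshold. Leaving out each library gave -35.74 to -35.25. The ratio of medians was 0.264 with TPM above 0, 0.309 above 0.1, 0.439 at 1 or more, 0.377, 0.361 and 0.310 with limits of 200, 250 and 350 bp, 0.328 against all longer models, 0.387 without overlapping models and 0.363 with both libraries above the threshold. Leaving out each library gave 0.288 to 0.298.

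The SD between replicates was 1.82 times (vitamin C) and 1.83 times (untreated) that of the longer class. It was 2.31 and 2.26 times with a pseudocount of 0.1, and 1.76 and 1.72 above 0.05 TPM. At 10 TPM or more it was 1.56 and 2.06, and by median absolute values 1.29 and 1.32. With a limit of 200 bp it was 1.40 and 1.34, and without overlapping models 1.71 and 1.60. Without the 4 widest short models it was 1.52 and 1.42. This last setting was added after seeing the data, and nothing was left out of the longer class. The overlapping share of 10.5% was 6.72% with at least 50% of the model shared, 5.14% wholly inside, and 8.77% and 8.71% counting partners expressed with vitamin C and untreated. The vitamin C difference in share was -1.84 points at a TPM of at least 1, and -1.65 to -0.919 without each library.

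For vitamin C, 1 short model was lower and 0 higher. Without the filter 0 were lower (adjusted p = 0.176 for that model in limma), at an adjusted p under 0.1 there were 2, and with any library left out 0 were lower and 0 higher, as no model of the 15107 passed in fits of 2 against 1, while the difference of that model stayed at -4.62 to -4.53. The replicate block gave 2 higher and 14 lower, against 43 and 85 among all 15107 models tested. With the block, limma gave adjusted p of 1.99e-07, 0.00153 and 5.74e-06 for lower models on linkage group 1, scaffold 13 and linkage group 5. These were followed in the vitamin C comparison, as was the higher one of 117 bp, at 0.0116. Without the block, adjusted p in limma was 0.279, 0.355, 0.0773 and 0.31 in the same order. With 2 libraries per condition, a block leaves hardly any spread of a single model to measure. The values with the block therefore rest mostly on variance borrowed from all models. Crossed pairing, added after seeing the data, gave 3 higher and 18 lower, against 100 and 225 among all models tested. Replicate 1 minus 2 differences correlated at -0.2559 between conditions over 15107 genes, and the samples share only a number. In all other alternatives 1 was lower and 0 higher. There are 2 libraries per condition, and exact tests over them cannot reach 0.05.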
